A study of Mus musculus with 68 samples.

Results

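Gene expression was compared between mesenchymal stromal cells of 3-month-old mice that carried 1 floxed Ezh2 allele (Het, genotype Ezh2fl/+:Prxx-1-Cre in the labels) and of 3-month-old mice with intact Ezh2 alleles (WT, Ezh2+/+:Prrx-1-Cre). Both genotypes carried the Prrx1-Cre transgene, whose promoter drives the recombinase in limb bud mesenchyme, so cells of other origins in a culture keep both Ezh2 alleles. The cells were cultured from long bones in growth medium and harvested with trypsin, and bulk RNA was sequenced. The comparison takes the 7 biological samples of the series that are labelled 3M, of 17 in all. WT had 4 samples, S3 and S4 labelled female and S5 and S12 labelled male, and Het had 3, S8 and S10 labelled male and S14 labelled female. The other 10 samples are cultures of the same 2 genotypes at 12 months, 4 WT and 6 Het. These numbers come from the sample labels, since the series text states 3 for every group. Whether each sample came from its own mouse is not labelled, and a p-value therefore reflects only how far these cultures vary, which may in part be technical. Xist and 4 Y-linked transcripts matched the labelled sex in 7 of the 7 libraries.

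Ezh2 encodes the main catalytic subunit of Polycomb repressive complex 2 (PRC2), which places a repressive methyl mark on histone H3 and works with the core subunits Eed and Suz12. Polycomb repressive complex 1 (PRC1) reads that mark and compacts chromatin. In mammalian cells the classical targets are CG-rich promoters of developmental regulators, above all the Hox genes, and in stromal cells of bone Ezh2 is known as a restraint on osteoblast differentiation.

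For that reason the promoters of genes that the results turn on are given here by their CG content. Sequences and positions are from RefSeq on GRCm38.p6, the assembly also called mm10, with each CG dinucleotide in capitals. Otor was chosen as the named gene with the largest difference, Gucy1a2 as the lower gene with the smallest p, and Hoxb8 as a Hox member, and for each the 250 bases before the annotated start are shown. The 3 stretches lie on the plus strand at chr2:143078143-143078392 (Otor), chr9:3532099-3532348 (Gucy1a2) and chr11:96281655-96281904 (Hoxb8). Tmem176a and Tmem176b, a neighbouring pair that was higher in Het together, each have an annotated start that faces away from the other, with 108 bases between them at chr6:48841375-48841482, shown on the plus strand.
Otor: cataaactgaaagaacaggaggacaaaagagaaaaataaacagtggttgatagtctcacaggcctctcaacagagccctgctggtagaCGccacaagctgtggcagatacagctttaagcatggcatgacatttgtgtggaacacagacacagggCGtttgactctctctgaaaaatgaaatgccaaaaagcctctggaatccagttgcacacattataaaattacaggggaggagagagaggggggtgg
Gucy1a2: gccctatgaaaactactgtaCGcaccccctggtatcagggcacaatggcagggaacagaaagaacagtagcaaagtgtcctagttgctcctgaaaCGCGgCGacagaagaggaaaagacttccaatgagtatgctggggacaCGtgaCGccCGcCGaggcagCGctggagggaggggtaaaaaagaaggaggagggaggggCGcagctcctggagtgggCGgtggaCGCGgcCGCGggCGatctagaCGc
Hoxb8: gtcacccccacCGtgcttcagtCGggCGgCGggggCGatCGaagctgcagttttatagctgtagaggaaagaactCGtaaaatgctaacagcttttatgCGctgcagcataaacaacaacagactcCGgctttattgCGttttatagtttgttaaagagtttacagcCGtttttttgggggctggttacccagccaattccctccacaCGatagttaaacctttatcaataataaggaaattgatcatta
Tmem176a and Tmem176b: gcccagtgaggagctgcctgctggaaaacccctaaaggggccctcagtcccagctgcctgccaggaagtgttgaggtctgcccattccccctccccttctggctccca

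The Otor stretch held 2 CG dinucleotides, the Gucy1a2 stretch 17, the Hoxb8 stretch 12 and the bases between the Tmem176 starts 0. Over the full RefSeq window of 300 bases, 250 before to 50 after the start, the genes tested had a median of 22 CG (10822 genes with a window, the window richest in CG taken where a gene had several). CG was counted on the strand given, and the count is the same on both strands. Of the 12 named genes that were higher in Het, 10 had a window, with a median of 6.5 CG and a range from 2 in Otor to 39 in Draxin. Of the 12 that were lower, 9 had a window, with a median of 18 and a range from 1 in Lama2 to 64 in Mark1. At least 10 CG were present in 3 of the 10 higher and 6 of the 9 lower genes, against 84.5% of the genes tested. Among all genes at an unadjusted p under 0.05 the share was 73.4% of 346 higher genes and 82.7% of 369 lower genes. These counts describe the annotated windows and do not measure binding or methylation.

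The depth was 19875204 to 24212728 counts per WT sample and 17326547 to 20001884 per Het sample, summed over 4 technical replicates each. The samples did not differ from each other equally. The most alike pair was Het S8 and S10, with a chi-square per degree of freedom of 18.52, against 1.03 to 1.05 between technical replicates of 1 sample and 40.89 for the next pair, WT S3 and S4. WT S5 stood at 171.32 or more from every other sample and Het S14 at 147.21 or more. S14 is also the one female Het sample, so a difference between the sexes in Het and the state of this culture cannot be told apart. The 10 stromal markers fixed for the check, among them Prrx1, Pdgfra and Col1a1, were each at 1 CPM or more in 7 of 7 libraries, with a summed level of 7180 to 13647 CPM in WT and 7578 to 12561 CPM in Het.

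Markers of other cells were present as well, and levels here and below are CPM, counts scaled to library depth with edgeR's TMM factors. The 5 macrophage markers (Ptprc, Adgre1, Csf1r, Lyz2 and Cd68) summed to 119 to 1536 CPM in WT and 119 to 1151 CPM in Het, with S12 and S14 at the low end of their groups. The 5 endothelial markers summed to 4.93 to 75.04 CPM in WT, highest in S5, and to 1.45 to 38.0 CPM in Het, with Cdh5, Kdr and Emcn at 0 in S14. The 4 Schwann cell markers summed to 2.63 to 9.22 CPM in WT and 2.64 to 8.90 CPM in Het. Of 5 lymphoid and erythroid markers, Cd3e and Hbb-bs were among those at 0 in every library, and the 4 muscle and epithelial markers summed to at most 0.412 CPM, with Epcam at 0 throughout. In bulk RNA, fewer cells of a type and less RNA per cell cannot be told apart.

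Ezh2 itself lay on chromosome 6 (47530274 to 47595270) and was at 13.6, 13.5, 14.2 and 9.08 CPM in WT and 11.9, 12.7 and 8.62 CPM in Het, where here and below values are in the order S3, S4, S5 and S12 for WT and S8, S10 and S14 for Het. The WT mean was 12.6 ± 2.37 CPM (SD, n = 4) and the Het mean 11.1 ± 2.15 CPM (SD, n = 3). The groups overlapped only through the lowest WT sample, S12, which lay below Het S8 and S10. WT S3, S4 and S5 were above every Het sample. The log2 difference, Het minus WT with a term for the labelled sex, was -0.20 ± 0.26 (SE, as after each log2 difference below) with a 95% interval from -0.82 to 0.41 (edgeR p = 0.461, adjusted p = 0.935). Within the sexes the difference was -0.65 in females (S14 against S3 and S4) and 0.11 in males. The counts are per gene and not per exon, so transcripts that lack the floxed exons are counted as Ezh2, and the extent of deletion of the allele is not read from these values. With 1 sample left out the estimate ranged from -0.42 to 0.07, the upper end being that without Het S14. Here and below, an estimate without S14, the one female Het sample, rests on the same libraries as the male comparison. The male value and the value without S14 are therefore not separate checks.

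The groups overlapped in the other PRC2 genes too. Of 12 PRC2 genes tested, 6 had a higher and 6 a lower estimate, 0 reached an unadjusted p under 0.05, and the median log2 difference was -0.01, as over all 14117 genes tested (-0.01). Ezh1, the paralogue with weaker catalytic activity, was at 42.8, 41.9, 35.8 and 51.2 CPM in WT and 38.3, 36.9 and 73.8 CPM in Het, with a log2 difference of 0.21 ± 0.25. Suz12, a core subunit, was at 35.02, 22.5, 59.9 and 42.9 CPM in WT and 35.5, 37.4 and 34.4 CPM in Het and had an estimate of -0.19 ± 0.25. Aebp2, an accessory subunit, had the smallest p of the list (-0.36 ± 0.19, edgeR p = 0.102), with 82.5, 71.2, 117 and 107 CPM in WT and 72.4, 71.7 and 79.96 CPM in Het. Of 21 PRC1 genes, 2 (9.52%, against 6.9% of all genes) reached p under 0.05, both lower. They were Bcor, a scaffold of a variant PRC1, at 38.3, 35.8, 35.01 and 69.1 CPM in WT and 32.8, 23.4 and 24.9 CPM in Het (-0.76 ± 0.27), where the Het samples were all below WT, and Yaf2. Yaf2, which binds the Ring1 proteins, was at 39.3, 36.1, 56.5 and 48.2 CPM in WT and 37.1, 40.8 and 27.1 CPM in Het (-0.45 ± 0.16). Bcor's highest WT sample was S12, and its estimate was -0.44 without that sample.

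**Figure D1:**
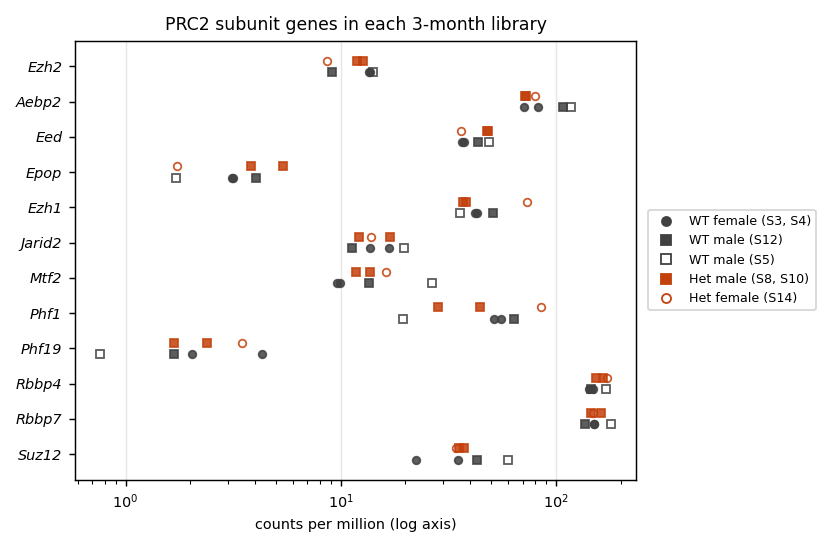
Level of Ezh2 and the 11 other PRC2 subunit genes in each 3-month library, in TMM-scaled CPM on a log axis. Each point is 1 biological sample, circles female and squares male, with open symbols for WT S5 and Het S14. The WT and Het points of Ezh2 overlap between 9.08 and 12.7 CPM.

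Across all genes, 0 of 14117 (0.0%) passed an adjusted p of 0.05 in edgeR's quasi-likelihood test with Benjamini-Hochberg adjustment, and the smallest adjusted p was 0.133. At an unadjusted p under 0.05 there were 974 genes (6.9%), 463 higher in Het (3.28%) and 511 lower (3.62%). The 3 Het samples were all above the 4 WT samples in 456 genes (3.23%) and all below in 495 genes (3.51%). DESeq2 on the same 7 libraries called 174 genes, 70 higher and 104 lower, limma voom called 1, and edgeR with no filter on low counts called 12. Leaving out WT S5 gave 22 calls, and leaving out both WT S5 and Het S14, an alternative chosen after seeing the data, gave 2437, with the Het group then made of the alike pair S8 and S10. The named genes below are given by their values, and none passed the threshold of edgeR's test on the 7 libraries. Of the 24 genes named for the smallest p in each direction, 24 were called by DESeq2, 24 had 1 sign in both sexes, and 24 kept their sign under 20 alternatives. In 23 of the 24 the groups did not overlap. The choice by p on these same libraries favours each of these counts, so none of them is independent support.

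The largest difference among the named genes was that of Otor, on chromosome 2 (143078393 to 143081713), which encodes otoraplin, a small secreted protein of cartilage and inner ear. Otor was at 8.36, 5.01, 6.78 and 3.05 CPM in WT and 68.1, 62.2 and 260.2 CPM in Het. The Het samples were all above WT, and S14 was the highest by far. The log2 difference was 4.40 ± 0.43, with a 95% interval from 3.39 to 5.41 (edgeR p = 1.08e-05, adjusted p = 0.133). It was 3.81 between the males alone, and without S14 the estimate was 3.73.

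Of the other higher genes, 3 are described next. Draxin, a secreted axon guidance factor, was at 15.3, 15.2, 16.6 and 18.7 CPM in WT and 64.1, 39.04 and 64.6 CPM in Het (log2 difference 1.76 ± 0.22). Tnn, which encodes tenascin-N, a matrix glycoprotein of periosteum and developing bone, was at 29.04, 26.7, 46.9 and 41.5 CPM in WT and 324, 233 and 59.96 CPM in Het (2.08 ± 0.34). The 2 genes differed in which Het samples were high, since Draxin was similar in S8 and S14 while Tnn was highest in the males S8 and S10 and nearest to WT in S14. Crygs, a lens crystallin found in other tissues at low levels, was at 2.101, 1.98, 0.812 and 0.743 CPM in WT and 4.24, 4.53 and 7.11 CPM in Het (2.20 ± 0.31).

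Tmem176b and Tmem176a encode a pair of related proteins of intracellular membranes. Tmem176b was at 87.2, 103, 73.8 and 66.9 CPM in WT and 150.4, 172 and 224 CPM in Het. Tmem176a was at 42.8, 47.1, 45.1 and 32.9 CPM in WT and 82.3, 92.6 and 131 CPM in Het. Their estimates were close, at 1.21 ± 0.16 and 1.32 ± 0.18 on the log2 scale, and both were above WT in every Het sample. RefSeq places them on opposite strands of chromosome 6 with overlapping spans (48833811 to 48845948 for Tmem176b and 48841483 to 48845364 for Tmem176a), and the kit does not mark strand, so reads from the overlap cannot be assigned to 1 of them with certainty. Both are also expressed by myeloid cells. The macrophage markers above summed to 891, 1536, 523 and 119 CPM in WT and 1017, 1151 and 119 CPM in Het, while the pair was highest in S14. The part of macrophages in the levels of the pair was not tested. Fxyd1, a regulator of the sodium pump, was at 37.4, 34.8, 15.5 and 22.8 CPM in WT and 39.1, 46.9 and 149 CPM in Het (1.53 ± 0.24), highest in S14. Ramp2, which turns the calcitonin-like receptor into an adrenomedullin receptor, was at 3.79, 6.396, 2.29 and 1.88 CPM in WT and 5.83, 5.91 and 50.1 CPM in Het (2.30 ± 0.41). Ramp2 was the one named gene whose groups overlapped, with S8 and S10 below WT S4.

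The remaining 4 higher genes have varied known roles. Cox6b2, the testis form of a cytochrome c oxidase subunit, was at 20.2, 19.3, 11.1 and 12.95 CPM in WT and 25.1, 23.2 and 51.98 CPM in Het (1.16 ± 0.17). Ldhb, the lactate dehydrogenase subunit favoured by oxidative tissues, was at 48.3, 46.4, 33.8 and 31.7 CPM in WT and 66.6, 63.7 and 74.4 CPM in Het (0.86 ± 0.16), with the groups well apart. Pcp4l1, a small protein related to a calmodulin regulator, was at 5.48, 1.88, 3.2000 and 5.13 CPM in WT and 14.1, 15.2 and 31.9 CPM in Het (2.35 ± 0.43). Bambi, a decoy receptor that dampens TGF-beta signalling, was at 10.8, 12.8, 11.2 and 12.8 CPM in WT and 22.1, 22.9 and 28.6 CPM in Het (1.06 ± 0.18), a narrow range in both groups. Adjusted p of these 12 genes lay between 0.133 and 0.299 in edgeR's quasi-likelihood test.

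The lower genes were headed by Gucy1a2, on chromosome 9 (3532349 to 3905791), the alpha-2 subunit of the nitric oxide receptor guanylate cyclase. It was at 10.3, 8.63, 15.5 and 13.2 CPM in WT and 2.74, 1.88 and 1.97 CPM in Het, a log2 difference of -2.49 ± 0.27 with a 95% interval from -3.12 to -1.85 (edgeR p = 2.22e-05, adjusted p = 0.133). The highest Het sample, S8, was far below the lowest WT sample, S4. Fgf9, a growth factor of skeletal and limb development, was at 3.05, 1.49, 3.105 and 3.68 CPM in WT and 0.499, 0.407 and 0.231 CPM in Het (-3.01 ± 0.45), near the limit of detection in Het. Alkal1, a ligand of the receptor kinases ALK and LTK, was at 4.37, 3.52, 5.49 and 5.4000 CPM in WT and 1.296, 1.32 and 1.27 CPM in Het (-1.89 ± 0.31), nearly the same in the 3 Het samples.

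The next 7 lower genes have varied known roles. Lama2, the alpha-2 chain of laminin in basement membranes, was at 52.4, 67.6, 52.4 and 42.5 CPM in WT and 16.95, 12.7 and 15.8 CPM in Het (-1.77 ± 0.21). Sema3a, a secreted guidance cue that also acts in bone, was at 88.4, 89.1, 84.9 and 56.5 CPM in WT and 32.8, 33.04 and 36.7 CPM in Het (-1.17 ± 0.19), where S12 was the low WT sample and the Het samples were close together. Pcdh19, an X-linked protocadherin, was at 39.1, 59.4, 34.2 and 33.2 CPM in WT and 14.6, 11.96 and 19.4 CPM in Het (-1.34 ± 0.20). Mark1, a kinase that loosens microtubule-binding proteins, was at 58.3, 52.5, 83.4 and 60.2 CPM in WT and 25.7, 22.96 and 22.1 CPM in Het (-1.47 ± 0.19), with the 3 Het samples close together. Tmeff2, a membrane protein with follistatin and EGF-like domains, was at 43.1, 51.6, 27.5 and 35.8 CPM in WT and 11.4, 10.6 and 9.02 CPM in Het (-1.86 ± 0.25). Rftn1, which encodes raftlin of lipid rafts, was at 51.7, 65.05, 50.3 and 58.3 CPM in WT and 22.99, 22.4 and 14.9 CPM in Het (-1.53 ± 0.22). Rbms3, an RNA-binding protein, was at 94.5, 118, 133 and 107 CPM in WT and 62.7, 62.7 and 52.7 CPM in Het (-0.96 ± 0.17). In these 7 genes all Het samples were below WT.

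**Figure D2:**
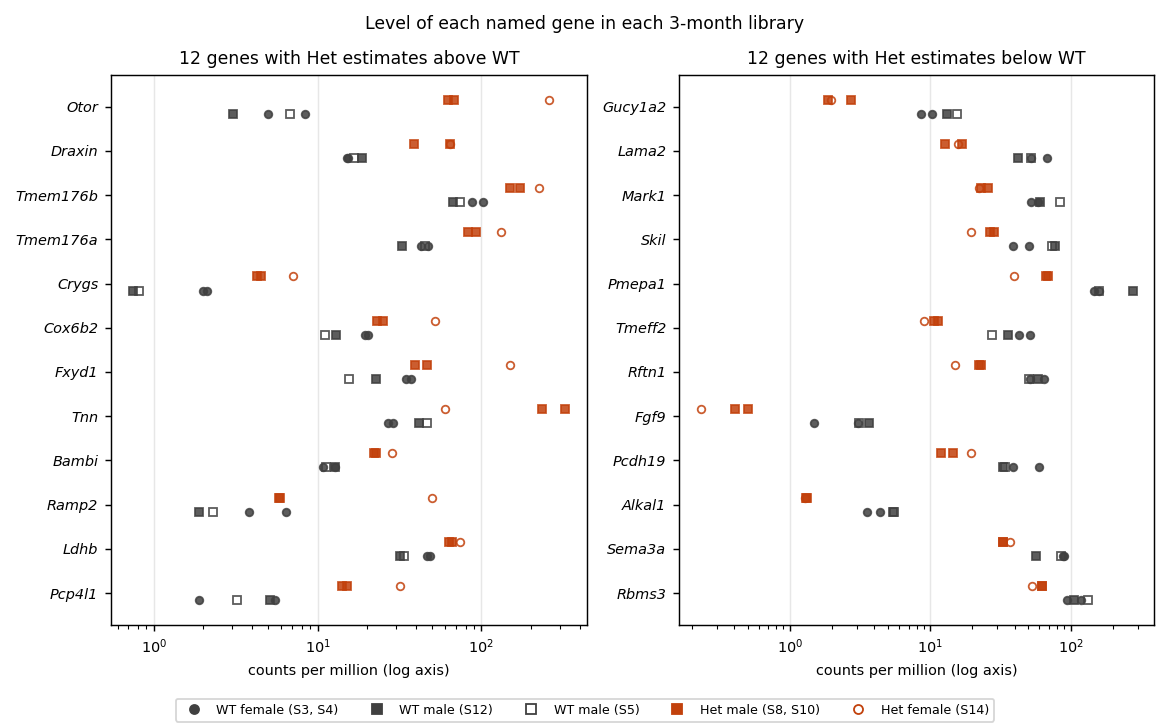
TMM-scaled CPM of the 12 higher (left) and 12 lower (right) named genes in each 3-month library, on a log axis, with genes in order of p. Each point is 1 biological sample, circles female and squares male, with open symbols for WT S5 and Het S14. Het and WT points are apart in 23 genes and overlap in Ramp2.

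Skil and Pmepa1 complete the lower genes, and both are feedback genes that TGF-beta signalling induces. Skil encodes SnoN, a corepressor bound to SMAD proteins, and was at 50.6, 38.9, 73.4 and 77.1 CPM in WT and 28.3, 26.6 and 19.5 CPM in Het (-1.35 ± 0.17). Pmepa1 encodes a membrane protein that sequesters receptor-activated SMADs, and was at 158, 147, 159 and 277 CPM in WT and 69.5, 66.5 and 39.8 CPM in Het (-1.78 ± 0.23). In both genes the 3 Het samples were all below WT, with S14 the lowest. For the 12 lower genes the adjusted p lay between 0.133 and 0.299 in edgeR's quasi-likelihood test.

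The BMP and TGF-beta list, which holds Skil and Bambi but not Pmepa1, leaned lower. BMPs and TGF-beta signal through paired receptor kinases to SMAD proteins and steer the choice between progenitor, cartilage and bone fates. Of the 65 tested members, 15 had a higher and 50 a lower estimate, with a median log2 difference of -0.24 against -0.01 over all genes tested. At an unadjusted p under 0.05 there were 1 higher (Bambi) and 14 lower members, 23.1% of the list against 6.9% of all genes, and the Het samples were all below WT in 10 members, as in 3.51% of all genes. The median kept its sign when each library was left out, from -0.40 without S14 to -0.07 without S12. It was -0.38 in the male comparison but -0.01 in the female one, where the median over all genes was 0.01. The list was chosen with earlier results of these data known, so the count is a description.

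Receptors were among the lower members. Tgfbr1, the type I TGF-beta receptor, was at 41.2, 37.1, 64.7 and 43.9 CPM in WT and 26.1, 29.3 and 18.04 CPM in Het (-1.03 ± 0.19). Bmpr1b, a type I BMP receptor of cartilage precursors, was at 11.9, 13.98, 10.99 and 15.03 CPM in WT and 6.33, 4.79 and 3.53 CPM in Het (-1.47 ± 0.27). Both were lowest in S14. Acvr2a, an activin type II receptor, was at 38.5, 55.2, 89.3 and 44.4 CPM in WT and 33.6, 36.8 and 27.2 CPM in Het (-0.87 ± 0.27). Eng, the TGF-beta co-receptor endoglin, was at 116, 109, 140.2 and 201 CPM in WT and 94.98, 82.9 and 80.1 CPM in Het (-0.76 ± 0.20). All 4 receptors were below WT in every Het sample, by the narrowest margin in Acvr2a.

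A ligand, an antagonist and 2 nuclear regulators are described next. Bmp5, a ligand, was at 18.1, 19.1, 62.7 and 34.4 CPM in WT and 17.9, 18.6 and 13.01 CPM in Het (-1.05 ± 0.28), and here S8 and S10 were at the level of the female WT samples. Grem1, a secreted BMP antagonist, was at 107, 88.4, 52.97 and 89.1 CPM in WT and 40.9, 33.4 and 60.02 CPM in Het (-0.84 ± 0.23), with WT S5 among the Het values. Id4, a BMP target that blocks helix-loop-helix factors, was at 65.99, 73.7, 101 and 72.2 CPM in WT and 56.6, 51.01 and 38.2 CPM in Het (-0.76 ± 0.18). Tgif1, a SMAD corepressor, was at 44.1, 31.5, 36.3 and 60.8 CPM in WT and 24.9, 24.03 and 25.1 CPM in Het (-0.83 ± 0.24). Both were below WT in every Het sample, and the adjusted p of the members named was between 0.133 and 0.528 by edgeR. The median transcript length of the list was 4086 bases, against 3436 over all genes tested with a length, and with transcript length as an offset the list median was -0.19.

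Hox genes, the classical Polycomb targets, were lower more often than higher. Of 39 members 34 were tested, 13 with a higher and 21 with a lower estimate and a median of -0.51, and 12 (35.3%, against 6.9% of all genes tested) reached p under 0.05, 3 higher and 9 lower. Hoxb8, whose promoter stretch is shown above, was at 3.05, 5.35, 1.05 and 6.03 CPM in WT and 0.698, 0.305 and 0.347 CPM in Het (-3.08 ± 0.73). Hoxb3, of the same cluster, was at 4.66, 8.58, 2.96 and 8.29 CPM in WT and 2.09, 2.596 and 1.27 CPM in Het (-1.67 ± 0.50). Hoxb9 was at 17.6, 22.7, 4.82 and 43.5 CPM in WT and 7.33, 5.65 and 0.347 CPM in Het (-2.90 ± 1.002). WT S5 was the lowest WT library in these 3 genes, and it overlapped the Het samples in Hoxb9.

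Hoxc13 and Hoxd13, far-end genes of their clusters, were lower as well. Hoxc13 was at 17.1, 13.6, 14.4 and 36.1 CPM in WT and 12.9, 11.9 and 2.89 CPM in Het (-1.52 ± 0.43), with S12 far above the other WT samples and S14 far below the other Het samples. Its estimate was -1.25 without S12 and -1.03 without S14. Hoxd13 was at 2.595, 3.87, 6.35 and 10.4 CPM in WT and 2.79, 3.003 and 0.289 CPM in Het (-2.09 ± 0.48), where S8 and S10 lay within the WT range. The 3 higher members had their 3 highest libraries in the females S3, S4 and S14, and the groups overlapped in each. Hoxd9 was at 9.23, 6.54, 2.197 and 3.17 CPM in WT and 4.34, 4.02 and 22.1 CPM in Het (0.999 ± 0.29). Hoxa11, of the forearm and lower leg, was at 9.76, 9.92, 2.82 and 4.304 CPM in WT and 6.28, 8.45 and 15.1 CPM in Het (0.88 ± 0.26). Hoxa13 was at 1.03, 0.942, 0.191 and 0.078000 CPM in WT and 0.698, 0.458 and 1.79 CPM in Het (1.48 ± 0.52). The adjusted p of the 8 Hox genes named lay between 0.404 and 0.608 by edgeR, and leaving out 1 library moved the list median from -0.78 (without S5) to -0.25 (without S12).

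The list of other developmental transcription factors had no common direction. Of 55 tested members 28 were higher and 27 lower (median 0.02, and -0.33 without S14), with 6 higher and 5 lower at p under 0.05 (20%, against 6.9% of all genes). Dlx5 and Dlx6 are neighbouring homeobox genes of the osteoblast lineage. Dlx5 was at 6.01, 8.53, 7.55 and 12.2 CPM in WT and 14.4, 15.2 and 23.2 CPM in Het (1.03 ± 0.31). Dlx6 was at 0.947, 0.892, 0.669 and 0.313 CPM in WT and 2.39, 2.34 and 1.39 CPM in Het (1.62 ± 0.52). Both were above WT in every Het sample, Dlx5 most in S14 and Dlx6 least in S14. En1, a limb homeobox gene, was at 6.88, 15.1, 10.9 and 11.8 CPM in WT and 6.03, 5.701 and 2.43 CPM in Het (-1.40 ± 0.40). Gata6, a zinc finger factor of mesoderm, was at 1.32, 3.02, 1.96 and 1.49 CPM in WT and 0.798, 0.865 and 0.694 CPM in Het (-1.27 ± 0.45). These 2 were below WT in every Het sample. Irx1, a homeobox gene of limb and cartilage, was at 7.83, 9.57, 6.21 and 7.55 CPM in WT and 10.9, 8.91 and 17.5 CPM in Het (0.72 ± 0.23), where S10 lay below WT S4. By edgeR the adjusted p of these 5 members was between 0.486 and 0.613.

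Osteoblast genes held members in both directions. Of 26 tested, 14 were higher and 12 lower (median 0.27), and 11 (42.3%, against 6.9% of all genes tested) reached p under 0.05, 7 higher and 4 lower. The median was 0.74 in females, 0.29 in males, -0.18 without S14 and 0.41 without both S5 and S14. The male value and the value without S14 rest on the same libraries, so that sign depended on how the difference was estimated. In 5 members all Het samples were above WT, as in 3.23% of all genes, Dlx5 among them. Pth1r, the parathyroid hormone receptor, was at 26.5, 30.1, 31.000 and 41.98 CPM in WT and 56.7, 56.9 and 97.9 CPM in Het (1.12 ± 0.26). Sp7, the osteoblast transcription factor osterix, was at 11.2, 7.68, 9.03 and 23.8 CPM in WT and 33.4, 28.7 and 31.2 CPM in Het (1.25 ± 0.35), similar in the 3 Het samples. Ibsp, a bone sialoprotein of mineralising matrix, was at 14.95, 18.7, 91.8 and 24.96 CPM in WT and 164, 147 and 567 CPM in Het (3.03 ± 0.84, and 1.41 without S14). Alpl, the alkaline phosphatase of osteoblasts, was at 51.8, 45.4, 50.8 and 32.6 CPM in WT and 176, 163 and 54.98 CPM in Het (1.35 ± 0.40). Ibsp was highest in S14, while Alpl was high in S8 and S10 and close to WT in S14.

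Some osteoblast genes were set by S14 or were lower. Spp1 (osteopontin) was at 1692, 1545, 1288 and 795 CPM in WT and 1572, 1612 and 6182 CPM in Het (1.17 ± 0.35). Dmp1, a gene of osteocytes, was at 1.03, 0.744, 1.96 and 1.41 CPM in WT and 1.95, 2.19 and 22.3 CPM in Het (2.25 ± 0.91). In both S14 stood far above the other 6 libraries and the Het males were within or close to the WT range. Enpp1, an enzyme that makes the mineralisation inhibitor pyrophosphate, was at 42.4, 47.3, 96.6 and 74.8 CPM in WT and 27.5, 30.8 and 34.9 CPM in Het (-1.06 ± 0.27), below WT in every Het sample. Ccn4, a secreted Wnt target, was at 102, 77.05, 212 and 55.5 CPM in WT and 73.1, 87.6 and 28.7 CPM in Het (-1.08 ± 0.46), where S8 and S10 lay inside the WT range. Adjusted p of the osteoblast members named was between 0.406 and 0.720 by edgeR.

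The chondrocyte list had the largest median of the 28 lists, and it depended on S14. Of 34 tested members 30 had a higher estimate, with a median of 0.87, and 7 (20.6%, against 6.9% of all genes) reached p under 0.05. The median was 2.90 in the female and -0.32 in the male comparison, -0.44 without S14 and 0.26 without both S14 and S5. The mean log2 CPM of the list was 2.68, 2.34, 5.03 and 4.14 in WT and 4.28, 4.19 and 5.74 in Het, so the female WT samples were the low ones and WT S5 was next to S14.

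Cytl1, a secreted protein of cartilage, was at 0.082000, 0.149, 0.86000 and 0.352 CPM in WT and 1.75, 2.09 and 25.5 CPM in Het (4.14 ± 1.24). Mia, which encodes the cartilage protein CD-RAP and is a relative of Otor, was at 0.577, 1.64, 3.63 and 1.37 CPM in WT and 5.04, 5.24 and 53.02 CPM in Het (3.06 ± 1.02). Both had all Het samples above WT, with S14 more than 10 times the other Het samples. Sox9, the master regulator of chondrocytes, was at 59.7, 66.4, 206 and 92.6 CPM in WT and 155, 143 and 284 CPM in Het (0.93 ± 0.47). Fgfr3, a receptor of growth plate chondrocytes, was at 8.404, 4.66, 46.2 and 58.8 CPM in WT and 65.9, 47.7 and 120.3 CPM in Het (1.91 ± 0.85). In Sox9 WT S5 lay above both Het males, and in Fgfr3 WT S12 lay between them. Chst11, a chondroitin sulfotransferase, was below WT in every Het sample at 39.7, 38.2, 43.5 and 51.5 CPM in WT and 36.6, 36.1 and 27.1 CPM in Het (-0.44 ± 0.15). Adjusted p of these 5 members was between 0.514 and 0.799 by edgeR.

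**Figure D3:**
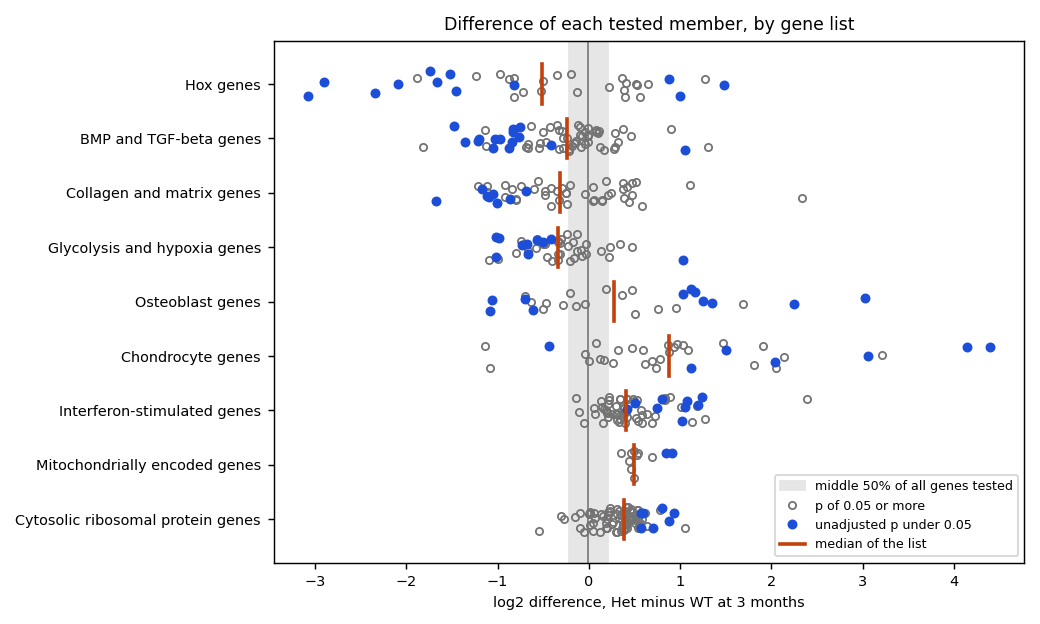
Log2 difference (Het minus WT at 3 months, edgeR) of every tested member of 9 gene lists. Filled points have an unadjusted p under 0.05, the vertical bars are list medians and the grey band spans the first to the third quartile of all 14117 genes tested. Medians run from -0.51 (Hox) to 0.87 (chondrocyte).

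Adipocyte genes were split, with 12 of 25 tested members higher and a median that rounded to 0. Ebf2, a factor of preadipocytes and of stromal precursors, was at 3.996, 9.82, 6.88 and 7.199 CPM in WT and 2.99, 2.44 and 0.983 CPM in Het (-1.87 ± 0.47), below WT in every Het sample. Klf5, a regulator of early adipogenesis, was at 0.659, 1.19, 1.39 and 0.822 CPM in WT and 2.09, 1.78 and 3.296 CPM in Het (1.24 ± 0.43), above WT in every Het sample. Pparg, the master regulator, was at 15.3, 17.3, 22.1 and 7.39 CPM in WT and 18.997, 18.4 and 32.7 CPM in Het (0.62 ± 0.36), and the groups overlapped through WT S5. Stromal progenitor genes leaned lower, 18 of 30 tested, with a median of -0.30 that kept its sign without each library. Mcam, a marker of perivascular progenitors, was at 13.1, 12.4, 19.8 and 7.12 CPM in WT and 5.58, 6.26 and 3.35 CPM in Het (-1.46 ± 0.40), below WT in every Het sample. Nt5e, an ectoenzyme used to define stromal cells, was at 24.3, 21.3, 63.8 and 48.05 CPM in WT and 22.6, 21.9 and 20.4 CPM in Het (-0.85 ± 0.27), with the Het samples at the level of the female WT samples.

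Against that direction, 3 of the 30 tested stromal progenitor genes had all Het samples above WT, as in 3.23% of all genes. Another 3 had all Het samples below WT, as in 3.51% of all genes. At p under 0.05 there were 7 members (23.3%, against 6.9% of all genes), 2 higher and 5 lower. Vcam1, an adhesion molecule of marrow stroma, was at 220.0, 328, 268 and 136 CPM in WT and 438, 427 and 435 CPM in Het (0.93 ± 0.29). Cxcl12, the niche chemokine of marrow stroma, was at 2662, 4287, 6343 and 1385 CPM in WT and 6958, 6837 and 7463 CPM in Het (0.94 ± 0.50). Twist1, a transcription factor of mesenchyme, was at 106, 116, 114 and 83.6 CPM in WT and 123, 126 and 162 CPM in Het (0.42 ± 0.17). In Vcam1 and Cxcl12 the Het samples lay close together while WT varied, with S12 the lowest. The adjusted p of Vcam1 and Cxcl12 was 0.527 and 0.811 by edgeR.

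Smooth muscle and pericyte genes were lower in 19 of 23 tested members (median -0.21), of which 3 (13% of the list, against 6.9% of all genes) reached p under 0.05, and the median was 0.22 without S14. Synpo2, an actin-binding protein, was at 16.7, 13.3, 12.3 and 14.05 CPM in WT and 6.68, 6.36 and 3.99 CPM in Het (-1.35 ± 0.27). Myh11, smooth muscle myosin, was at 16.7, 9.47, 9.36 and 6.77 CPM in WT and 3.94, 4.89 and 1.97 CPM in Het (-1.53 ± 0.47). Both were below WT in every Het sample and lowest in S14. Actg2, smooth muscle gamma actin, was at 105, 96.5, 35.97 and 52.5 CPM in WT and 37.6, 50.6 and 0.752 CPM in Het, with WT S5 below both Het males and S14 far below every other library.

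Collagen and matrix genes were lower in 31 of 50 members (median -0.31), and 8 (16%, against 6.9% of all genes) reached p under 0.05, all lower. The median kept its sign without each library, but it was 0.21 without both S5 and S14. It was -0.30 in females, -0.03 in males and -0.06 with voom. Basement membrane components were among the 8. Col4a1, which forms the collagen IV network, was at 495, 767, 199.8 and 209.7 CPM in WT and 131, 107 and 212 CPM in Het (-1.09 ± 0.27). Col4a2, its partner chain, was at 440.0, 705, 177 and 223 CPM in WT and 140.4, 121 and 185 CPM in Het (-1.002 ± 0.30). In both chains the female WT samples were the highest and the male WT samples were near S14. Nid1, which links laminin and collagen IV networks, was at 433, 572, 355 and 349 CPM in WT and 244, 216 and 291 CPM in Het (-0.68 ± 0.19), below WT in every Het sample, as was Lama2 above.

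Fbn1 (fibrillin) was at 1084, 1704, 1431 and 692 CPM in WT and 717, 604 and 392 CPM in Het (-1.12 ± 0.40). Eln (elastin) was at 4.28, 11.3, 3.54 and 16.8 CPM in WT and 2.94, 2.29 and 3.24 CPM in Het (-1.68 ± 0.60). Eln was below WT in every Het sample, and in Fbn1 S8 lay just above WT S12. Tnc, a tenascin, was at 437, 403, 893 and 694 CPM in WT and 454, 404 and 236 CPM in Het (-0.86 ± 0.20), a direction opposite to that of its relative Tnn. Efemp2, an elastic fibre assembly protein, was the one member with all Het samples above WT, at 801, 722, 455 and 753 CPM in WT and 1068, 1029 and 903 CPM in Het (0.58 ± 0.26). The adjusted p of the matrix genes named was between 0.398 and 0.740 by edgeR, and the median transcript length of the list was 5215 bases.

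Matrix proteases had no direction, with 14 of 27 tested higher. The 3 members at p under 0.05 (11.1%, against 6.9% of all genes) were lower ADAMTS proteases. Adamts6 was at 12.1, 13.6, 23.8 and 9.59 CPM in WT and 5.49, 5.09 and 3.99 CPM in Het (-1.67 ± 0.34). Adamts5, an aggrecanase of cartilage, was at 1133, 958, 1284 and 1597 CPM in WT and 944, 808 and 732 CPM in Het (-0.64 ± 0.22). Both were below WT in every Het sample. Adamts1 was at 429, 522, 505 and 369 CPM in WT and 377, 339.5 and 174 CPM in Het (-0.73 ± 0.30), where S8 lay above WT S12. Mmp3, stromelysin, was high in S14 alone, at 25.8, 33.3, 17.7 and 35.7 CPM in WT and 17.4, 18.9 and 307 CPM in Het.

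Of 45 glycolysis and hypoxia genes, 39 were lower (median -0.34), and 10 (22.2%, against 6.9% of all genes) reached p under 0.05, 9 of them lower. Epas1, the hypoxia-inducible transcription factor HIF-2 alpha, was at 129, 189, 156 and 144 CPM in WT and 78.4, 68.8 and 83.1 CPM in Het (-0.99 ± 0.19, edgeR adjusted p = 0.299), with all Het samples below WT. Vegfa, the vascular growth factor, was at 219.5, 197, 152 and 234 CPM in WT and 156, 118 and 55.97 CPM in Het (-1.02 ± 0.34). Ero1a, an oxidase of the endoplasmic reticulum, was at 84.7, 59.8, 164 and 105 CPM in WT and 84.6, 86.5 and 40.01 CPM in Het (-0.73 ± 0.22). In Vegfa and Ero1a S14 was the lowest library, and without S14 the list median was -0.04. Ndrg1, a hypoxia-induced gene, was the one higher member at p under 0.05, at 109, 152, 138 and 119 CPM in WT and 201, 205 and 386 CPM in Het (1.03 ± 0.24), above WT in every Het sample.

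Stress lists also leaned lower, with medians that were smaller without S14 but kept their sign without each library. Without both S5 and S14 the medians were -0.28 for amino acid and integrated stress response genes and -0.20 for NRF2 and antioxidant genes. Amino acid and integrated stress response genes were lower in 26 of 30 members (median -0.32, and -0.09 without S14), with 5 lower at p under 0.05 (16.7%, against 6.9% of all genes). Slc38a1, a glutamine transporter, was at 67.7, 46.3, 112 and 213 CPM in WT and 50.8, 46.02 and 23.1 CPM in Het (-1.57 ± 0.28, edgeR adjusted p = 0.299), with S12 the high WT sample and S8 above WT S4. Atf4, the transcription factor of the pathway, was at 149, 119, 154 and 254 CPM in WT and 151, 136 and 78.7 CPM in Het (-0.61 ± 0.22). Chac1, one of its targets, was at 23.3, 15.6, 50.5 and 41.98 CPM in WT and 29.3, 38.1 and 8.44 CPM in Het (-0.74 ± 0.25). In these 2 genes the Het males were inside the WT range and S14 was the lowest library.

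NRF2 and antioxidant genes were lower in 21 of 29 tested (median -0.21, and -0.02 without S14), with 5 lower and 1 higher at p under 0.05 (20.7%, against 6.9% of all genes). Gclm, a subunit of the enzyme that starts glutathione synthesis, was at 78.3, 68.02, 66.8 and 142 CPM in WT and 54.9, 53.7 and 24.8 CPM in Het (-1.18 ± 0.29). Nqo1, a quinone reductase, was at 94.9, 53.9, 69.3 and 183 CPM in WT and 46.9, 47.3 and 41.1 CPM in Het (-1.19 ± 0.37). Me1, malic enzyme, was at 95.8, 83.5, 159.6 and 138 CPM in WT and 68.6, 67.2 and 70.1 CPM in Het (-0.81 ± 0.21). The Het samples were all below WT in these 3 genes, and S12 was the highest WT sample in Gclm and Nqo1. Gpx3, a secreted glutathione peroxidase, was the higher member, at 626, 911, 636 and 609 CPM in WT and 976, 983 and 2232 CPM in Het (1.02 ± 0.27).

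Among lipid genes, 22 of 35 tested thioesterase and fatty acid oxidation genes were higher (median 0.13), and 3 (8.57%) reached p under 0.05, near the 6.9% of all genes tested. Acot1, a cytosolic acyl-CoA thioesterase, was at 1.48, 1.39, 1.91 and 0.47000 CPM in WT and 5.33, 6.11 and 6.88 CPM in Het (2.27 ± 0.46), and its reads are uncertain because a neighbouring gene is nearly identical. Pdk4, which turns off pyruvate dehydrogenase, was at 60.1, 53.05, 34.8 and 69.3 CPM in WT and 26.5, 26.4 and 21.6 CPM in Het (-1.14 ± 0.27), below WT in every Het sample. Cholesterol synthesis genes were higher in 21 of 26 tested (median 0.20), and 2 (7.69%) reached p under 0.05, also near the share of all genes. Mvk, mevalonate kinase, was at 30.6, 31.6, 13.7 and 20.5 CPM in WT and 32.6, 35.6 and 34.8 CPM in Het (0.67 ± 0.24). Acat2, which makes the first intermediate of the pathway, was at 19.6, 20.2, 19.4 and 15.8 CPM in WT and 22.3, 25.2 and 26.02 CPM in Het (0.41 ± 0.17). The mean log2 CPM of the cholesterol list was 4.86, 4.86, 4.82 and 4.46 in WT and 4.86, 4.90 and 5.02 in Het, so the groups were next to each other without crossing.

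Genes of mitochondrial DNA were higher in 11 of 11 tested members (median 0.50). Of these 2 reached p under 0.05 (18.2%, against 6.9% of all genes), and in 8 the Het samples were all above WT, as in 3.23% of all genes. Mitochondrial transcripts come from shared precursors, so the members are not independent. CYTB, of respiratory complex III, was at 4715, 4107, 2239 and 3403 CPM in WT and 4881, 6238 and 5201 CPM in Het (0.69 ± 0.32). COX1, of complex IV, was at 6421, 6128, 6100.3 and 5295 CPM in WT and 7079, 9219 and 8148 CPM in Het (0.46 ± 0.27). The mean log2 CPM of the list was 7.83, 7.63, 7.81 and 7.55 in WT and 8.11, 8.49 and 8.21 in Het, with the groups apart. ATP6 had the smallest p of the list, at 5.56, 4.46, 4.44 and 3.404 CPM in WT and 6.83, 9.82 and 7.805 CPM in Het (0.91 ± 0.28), but ATP6, COX2, COX3 and ND3 were counted at under 10 CPM in each library. Reads of these genes can also match nuclear copies, and how such reads were counted is not given in the sources used here.

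Cytosolic ribosomal protein genes were higher in 70 of 78 tested members (median 0.38). At p under 0.05 there were 7 members (8.97%), a share near the 6.9% of all genes. Rps4x was at 98.1, 126, 65.9 and 67.7 CPM in WT and 124, 157 and 146 CPM in Het (0.80 ± 0.21). Rps15 was at 339, 355, 117 and 222 CPM in WT and 340.0, 468 and 417 CPM in Het (0.88 ± 0.32). In both genes the male WT samples S5 and S12 were the low ones, and the median of the list was -0.18 in females and 0.76 in males. Ribosomal protein genes have many processed copies in the genome, so their counts are uncertain.

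Transcript length moved with both of these lists and with the comparison as a whole. Lengths were found for 13178 of the 14117 genes (93.3%), and Spearman's rho between length and the log2 difference was -0.295 across genes, which are not independent replicates. The 435 genes at p under 0.05 that were higher had a median length of 2558 bases, and the 498 that were lower 4501 bases. The median log2 difference was 0.14 in the shortest quintile of transcripts (at most 2030 bases) and -0.16 in the longest quintile (at least 5322 bases). By library, the median log2 deviation of the shortest minus the longest quintile was 0.15, 0.23, -0.76 and -0.07 in WT and 0.11, 0.32 and 0.03 in Het, so WT S5 was the library set apart. The median lengths of the mitochondrial and ribosomal lists were 957 and 1077 bases, and with transcript length as an offset, chosen after seeing the data, their medians were 0.30 and 0.19. The part of length in the difference between the genotypes was not tested beyond that offset.

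Cell cycle genes had higher estimates, with 0 members at p under 0.05, against 6.9% of all genes. Mitosis genes were higher in 36 of 37 members (median 0.25) and replication genes in 30 of 40 (median 0.17). Cdk1, the mitotic kinase, was at 31.8, 24.2, 17.9 and 18.04 CPM in WT and 25.7, 27.7 and 27.2 CPM in Het (0.33 ± 0.20). The mean log2 CPM of the mitosis list was 3.92, 3.01, 2.89 and 2.56 in WT and 3.31, 3.55 and 3.11 in Het, with S3 the highest of all. The median was -0.35 in females and 0.68 in males.

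Cdkn2a, the senescence locus that PRC2 silences in many cells, was at 148, 178, 77.3 and 137 CPM in WT and 129.9, 147 and 73.8 CPM in Het (-0.19 ± 0.37, edgeR p = 0.621). The Het males lay inside the WT range and S14 just below it. Cdkn2b, its neighbour, was at 159, 211, 155 and 132 CPM in WT and 205, 223 and 105 CPM in Het (0.05 ± 0.32). Cdkn1a, the p53 target, was at 661, 551, 281 and 802 CPM in WT and 651, 677 and 317 CPM in Het (-0.17 ± 0.43). Cdkn1c, an imprinted inhibitor, was the one CDK inhibitor of 8 at p under 0.05 (12.5%, against 6.9% of all genes). Cdkn1c was at 6.18, 22.7, 6.74 and 5.09 CPM in WT and 14.8, 17.2 and 61.1 CPM in Het (1.71 ± 0.41), with WT S4 between the Het values and S14 far above.

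In the list of IGF, oncofetal and imprinted genes, 15 of 29 tested were higher (median 0.01). Igf2bp3, an oncofetal RNA-binding protein, was at 4.202, 4.36, 3.54 and 4.85 CPM in WT and 1.65, 1.32 and 0.752 CPM in Het (-1.86 ± 0.37, edgeR adjusted p = 0.3096), below WT in every Het sample. Hmga2, a chromatin protein of fetal stroma, was at 60.7, 34.9, 15.2 and 65.5 CPM in WT and 16.5, 13.9 and 28.2 CPM in Het (-1.14 ± 0.48), with WT S5 among the Het values. Igf2, the fetal growth factor, was at 137, 195, 594 and 67.3 CPM in WT and 209, 256 and 18.9 CPM in Het, highest in WT S5 and lowest in Het S14. Mest, an imprinted gene of mesoderm, was at 61.7, 82.7, 195 and 37.9 CPM in WT and 423, 424 and 79.3 CPM in Het, with the Het males S8 and S10 far above the other 5 libraries.

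The interferon list depended on S14. Interferon-stimulated genes were higher in 61 of 64 tested (median 0.41), with 9 at p under 0.05 (14.1%, against 6.9% of all genes), all higher. The median was 1.58 in females, -0.25 in males, -0.43 without S14 and 0.29 without both S14 and S5. The mean log2 CPM of the list was 3.49, 3.36, 3.82 and 2.69 in WT and 2.94, 3.11 and 5.04 in Het. Bst2 (tetherin) was at 30.5, 41.4, 18.5 and 11.6 CPM in WT and 21.9, 25.1 and 109.6 CPM in Het (1.05 ± 0.27). Psmb8, a subunit of the immunoproteasome, was at 8.49, 11.5, 4.299 and 5.67 CPM in WT and 10.5, 9.42 and 22.9 CPM in Het (1.08 ± 0.23). In both genes S8 and S10 lay within the WT range. Tap1, the antigen transporter, was the one member with all Het samples above WT, at 53.8, 54.8, 35.2 and 51.3 CPM in WT and 64.3, 61.8 and 73.5 CPM in Het (0.50 ± 0.18).

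Inflammatory and secretome genes were higher in 18 of 30 tested (median 0.24, and -0.06 without S14), and 5 of the 7 at p under 0.05 (23.3%, against 6.9% of all genes) were lower. Ptgs2, the inducible cyclooxygenase, was at 213, 137, 61.1 and 224 CPM in WT and 54.5, 45.5 and 8.44 CPM in Het (-2.46 ± 0.74). Lif, a cytokine of the interleukin-6 family, was at 22.5, 17.997, 10.7 and 18.9 CPM in WT and 7.83, 5.65 and 1.68 CPM in Het (-1.95 ± 0.55). Il11, of the same family, was at 4.08, 2.18, 1.15 and 3.91 CPM in WT and 0.897, 0.509 and 0.983 CPM in Het (-1.77 ± 0.55). The Het samples were all below WT in these 3 genes, and WT S5 was the lowest WT sample in each. Immediate-early genes were lower in 21 of 33 tested (median -0.17, and 0.25 without S14), with 5 lower at p under 0.05 (15.2%, against 6.9% of all genes). Myc was at 38.6, 42.7, 35.4 and 59.7 CPM in WT and 33.7, 26.5 and 20.99 CPM in Het (-0.78 ± 0.23). Fosl1, a subunit of the AP-1 factor, was at 12.1, 5.35, 3.68 and 15.4 CPM in WT and 2.84, 2.54 and 3.06 CPM in Het (-1.70 ± 0.54). Both were below WT in every Het sample.

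Wnt genes were balanced, 26 of 55 tested higher (median -0.08), with 5 higher and 4 lower at p under 0.05 (16.4%, against 6.9% of all genes). Wnt5b, a ligand of the branch without beta-catenin, was at 8.73, 7.63, 5.64 and 5.05 CPM in WT and 11.6, 11.6 and 13.99 CPM in Het (0.98 ± 0.21). Wnt5a, of the same branch, was at 69.9, 74.9, 73.2 and 68.3 CPM in WT and 87.8, 75.2 and 132 CPM in Het (0.48 ± 0.19). Wnt16, a ligand of cortical bone, was at 4.04, 1.24, 3.34 and 1.84 CPM in WT and 7.28, 7.43 and 96.6 CPM in Het (3.17 ± 0.83). All 3 ligands were above WT in every Het sample, Wnt5a by a narrow margin in S10, and in Wnt16 S14 was more than 10 times the Het males. The co-receptor Lrp5 was at 112, 137, 115 and 175 CPM in WT and 78.2, 56.4 and 108 CPM in Het (-0.74 ± 0.27). The transcription factor Tcf7l2 was at 42.02, 60.3, 54.4 and 44.997 CPM in WT and 35.3, 30.4 and 32.9 CPM in Het (-0.61 ± 0.19). These 2 genes of the beta-catenin branch were below WT in every Het sample.

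Of 29 tested Notch and Hedgehog genes 19 were lower (median -0.20, of the same sign without each library), and 4 (13.8%, against 6.9% of all genes) reached p under 0.05. Notch2, a receptor, was at 123, 152, 195 and 174 CPM in WT and 121, 86.2 and 116 CPM in Het (-0.59 ± 0.21). Gli2, a Hedgehog transcription factor, was at 8.24, 9.57, 5.68 and 17.5 CPM in WT and 5.63, 2.65 and 5.38 CPM in Het (-1.17 ± 0.46). Both were below WT in every Het sample, in Notch2 and Gli2 by a narrow margin in S8. Smo, the Hedgehog transducer, was above WT in every Het sample, at 134, 159, 98.3 and 132 CPM in WT and 162, 166 and 180.0 CPM in Het (0.42 ± 0.18). The adjusted p of the Wnt, Notch and Hedgehog members named was between 0.342 and 0.707 by edgeR.

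Within the sexes the lists often differed in direction. The female comparison rests on 1 Het sample (S14) against 2 WT samples and the male one on 2 against 2, and neither was tested. Of the 28 lists described, 16 had female and male medians of opposite sign, and 14 kept the sign of their median when each library was left out in turn. The median turned sign without S14 in 8 lists and without S5 in 5. The fit without S14 rests on the same libraries as the male medians, so the count of 8 is not separate from the count of 16. The lists whose median kept its sign included Hox, BMP and TGF-beta, stromal progenitor, collagen and matrix, mitochondrially encoded, ribosomal protein and cholesterol synthesis genes. Glycolysis and hypoxia genes and the stress lists were also among them.

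**Figure D4:**
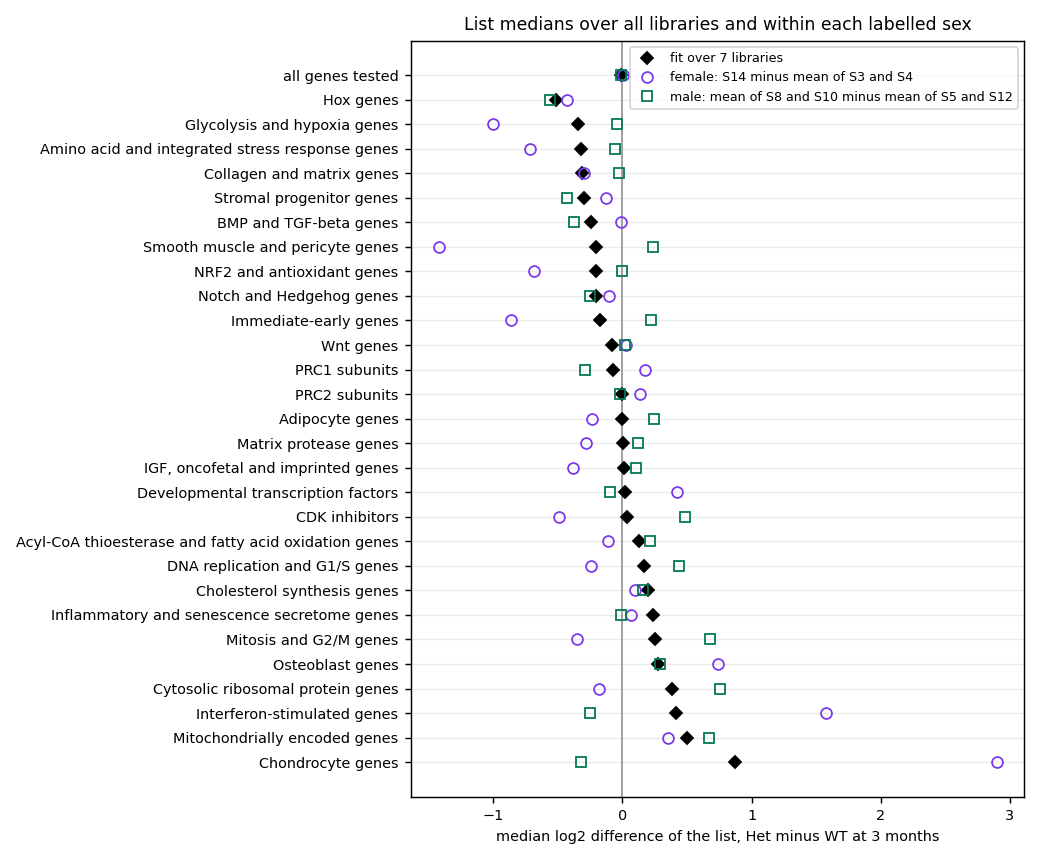
Median log2 difference (Het minus WT at 3 months) of each of 28 gene lists and of all genes tested. Diamonds are from the fit over 7 libraries, circles from the females (S14 against S3 and S4) and squares from the males (S8 and S10 against S5 and S12). The circles and squares are farthest apart for chondrocyte genes, at 2.90 and -0.32.

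At 12 months, in libraries that share none with the 3-month comparison, most of the named genes had an estimate of the other sign. In a fit of the 6 Het and 4 WT libraries, 0 of 14176 genes passed the adjusted threshold by edgeR, and 732 reached p under 0.05 (65 were called by DESeq2). Sex-linked transcripts were the opposite of the label in WT 12M S2, S6 and S13, and in S7, labelled female, Xist was at 78.8 CPM beside a mean of 33.7 CPM over 4 Y-linked genes. The 6 Het libraries matched their labels. For that reason this fit had no sex term and its directions are those of the libraries as labelled. Of the 24 named genes, 5 had the same sign at 12 months as at 3 months, 3 of the 12 higher and 2 of the 12 lower. Over all 13884 genes tested at both ages the share was 43.3%, and among the 951 of these at p under 0.05 at 3 months it was 33.9%.

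Otor was at 41.9 ± 51.3 CPM in WT and 15.5 ± 12.01 CPM in Het at 12 months (SD, n = 4 and 6), a log2 difference of -1.43 ± 1.15. Bambi had -0.79 ± 0.32 at 12 months, and Gucy1a2 1.13 ± 1.03. Tmem176b, Crygs, Tnn, Mark1 and Pmepa1 were the 5 genes with 1 sign at both ages, with 12-month estimates of 0.39, 0.998, 0.70, -0.10 and -0.86. Ezh2 had -0.16 ± 0.41 at 12 months. The lists went both ways. The 12-month median was of the other sign for Hox (0.05), chondrocyte (-1.64) and glycolysis and hypoxia genes (0.44), among others. It was of the same sign for BMP and TGF-beta (-0.10), interferon-stimulated (0.72), ribosomal protein (0.47) and collagen and matrix genes (-0.35), among others.

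A test of the difference between the ages, the genotype by age interaction over 17 libraries, had no sex term, unlike the 3-month fit. By edgeR it called 0 of 14897 genes (860 at p under 0.05, smallest adjusted p 0.497), and DESeq2 called 35. With the labelled sex as a term edgeR also called 0 (965 at p under 0.05, smallest adjusted p 0.39). For Bambi the interaction, the 3-month minus the 12-month log2 difference, was 1.82 ± 0.41 (edgeR p = 0.000391, adjusted p = 0.497), and for Otor it was 5.90 ± 1.60. Markers of other cells varied widely between libraries at 12 months. Sox10, a Schwann cell marker, was at 1.96, 234, 1.44 and 0.198 CPM of library totals in WT 12M S2, S6, S7 and S13 and between 0 and 1.67 CPM in the 6 Het 12M libraries, so S6 alone was high and the other libraries overlapped. The 5 macrophage markers summed to between 35.5 and 2258 CPM in WT 12M and between 20.1 and 30483 CPM in Het 12M. The part of these cells in the directions at 12 months was not tested.

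**Figure D5:**
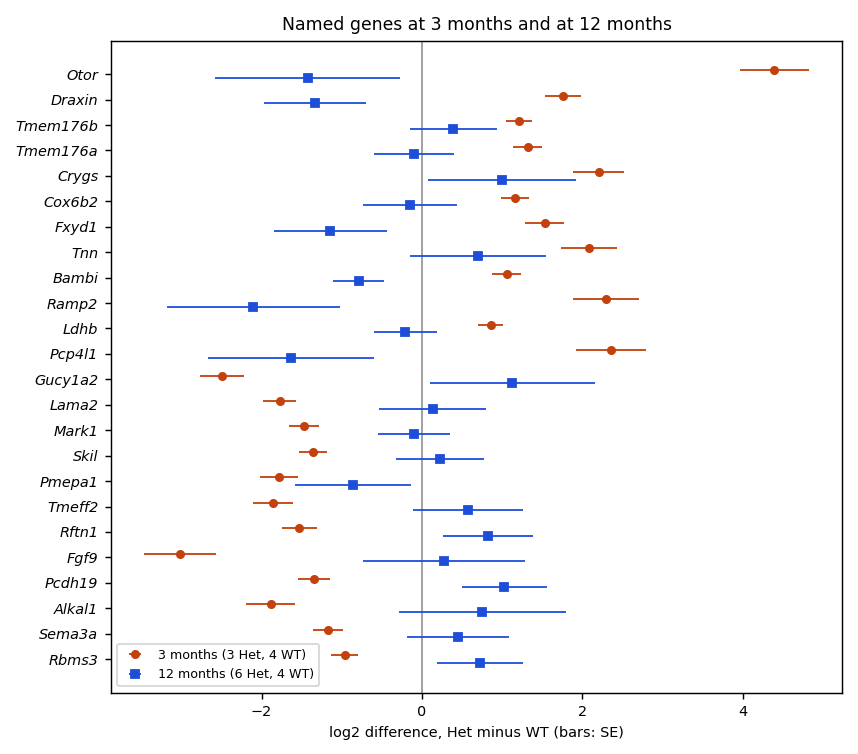
Log2 difference (Het minus WT) with its SE for the 24 named genes at 3 months (circles, 3 Het and 4 WT libraries) and at 12 months (squares, 6 Het and 4 WT libraries). Of the 24 genes, 5 have the sign of the 3-month estimate at 12 months, and the Otor estimate is 4.40 at 3 months and -1.43 at 12 months.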

How the data were processed

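RNA was made with Directzol from each culture and libraries with a TruSeq RNA v2 kit, per the labels' protocols. The deposited table holds whole-number counts per gene, which the authors made with Subread and featureCounts on mm10, per the submitters' processing notes. Further settings are not given in the sources used here. All 68 columns were mapped to samples by name, and the 4 technical replicates of each biological sample were summed, since they differed by little more than counting noise (chi-square per degree of freedom 1.03 to 1.05 at 3 months). Of 27179 Entrez identifiers 25275 had a symbol in the gene table supplied, and the 1904 without one, which held 0.573% of counts, stayed in the fits unnamed.

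The main test was edgeR 4.0.16 (R 4.3.3) with TMM scaling, filterByExpr, terms for genotype and labelled sex, and the robust quasi-likelihood F-test with Benjamini-Hochberg adjustment over all genes tested. A log2 difference is Het minus WT with its standard error. The alternatives were other scalings and filters, DESeq2 1.42.0, limma 3.58.1 voom with quality weights, no sex term, all 17 samples, 1 technical replicate, S8 and S10 summed, and each library left out. The fit was also run on simulated counts with 200 genes changed by known folds, and the outcome is not reported here. Transcript lengths are those of the longest GENCODE transcript of each gene, and promoter windows are from RefSeq (GRCm38.p6).

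Named genes were Ezh2 and, in each direction, the 12 with the smallest p among genes with a mean of at least 1 CPM and a symbol that is not a predicted gene, and up to 3 per list. Other list members in the text were chosen after their values were seen. The members and lists were chosen with earlier results of these data known.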

Additional observations from a re-analysis of the deposited data

Results flagged for a closer look

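Among the WT 3M samples, 13 of 132 groups of values checked (genes named or listed as examples, and list scores) held 1 sample whose gap to the nearest other exceeded Dixon's 95% limit for 4 samples, and chance flags about 1 in 20 groups. S12 was that sample in 9 of them. Its values were 9.08 CPM for Ezh2 (the others from 13.5 to 14.2), 69.1 CPM for Bcor, 36.1 CPM for Hoxc13, 277 CPM for Pmepa1, 56.5 CPM for Sema3a, 142 CPM for Gclm, 15.8 CPM for Acat2, 1.80 CPM for Saa3, an acute-phase protein, and a mean log2 CPM of 4.46 for the cholesterol list. S5 stood apart for Ibsp (91.8 CPM), the Wnt receptor gene Fzd6 (21.0 CPM) and the replication gene Gins1 (1.15 CPM), and S4 for Cdkn1c (22.7 CPM). The genes checked were chosen on these same libraries, and list scores share members with them, as Acat2 and the cholesterol list do. The count of 13 therefore cannot show an excess over the rate by chance. The 3 Het samples are too few for this check.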

How the results depend on the processing

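No paired analysis was possible because the numbers that samples share are those of technical replicates, which were summed within each biological sample. The count of calls was 0 with library totals, RLE scaling, a 1 CPM filter, no sex term, all 17 samples, S8 and S10 summed or length offsets. It was 12 with no filter, 174 with DESeq2, 1 with voom, 1 with technical replicate 1 alone and 2437 without both S5 and S14, and it ranged from 0 to 22 with 1 sample left out (22 without S5). The 974 genes at p under 0.05 became 580 with S8 and S10 summed, 215 and 234 in the fits of all 17 samples with and without sex, 4637 without both S5 and S14, and 589 (without S8) to 2190 (without S14) with 1 sample left out. The share of these that was higher was 47.5%, and 41.1% with no sex term. Genes whose groups do not overlap numbered 951 of 14117, 943 with library totals alone and 804 of 12447 with technical replicate 1 alone. With S8 and S10 summed they numbered 1409 of 14596, but fewer Het samples separate from WT more readily, so that count is not comparable. The other alternatives were not counted in this way. The Ezh2 log2 difference changed sign with voom (0.045), without S14 (0.074) and without both S5 and S14 (0.44), and ranged from -0.42 to 0.074 with 1 sample left out. Suz12 ranged from -0.501 (without S14) to 0.013 (without S5), and Phc2, a PRC1 gene, from -0.486 (without S5) to 0.008 (without S12), where each changed sign. At 12 months DESeq2 called 65, and leaving out 1 sample gave 0 to 1 (without WT S6). DESeq2 called 35 for the interaction. The cause was not tested in any of these.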
